A study of Mus musculus with 6 samples.

Results

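Vgll3 and the genes of the TEAD and YAP pathway around it were followed across the nuclei of mouse white fat. The 9 genes were taken by symbol from the 56980 genes listed in each library, and each symbol matched 1 row. They were Vgll3 and Vgll4, cofactors of TEAD factors, Yap1 and Wwtr1, the main coactivators, Tead1, a DNA-binding factor, Lats1 and Lats2, inhibitory kinases, and Ccn1 and Ccn2, target genes. Vgll3 was chosen by its rise in subcutaneous adipocytes between 2 and 24 months in these same data. For that comparison the values of all 9 genes are therefore a description with no test.

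The 6 libraries came from female C57BL/6J mice with no transgene or treatment, and each held the nuclei of a whole depot. Subcutaneous fat was of the inguinal depot (SAT), with 2 libraries from young mice (2 months) and 2 from old mice (24 months). Visceral fat was of the gonadal depot (VAT), with 2 libraries from old mice only. The older age is 24 months in the sample labels and 26 months in the text of the series. VAT at 2 months was not analysed here, so age was compared within SAT and depot at the older age. Both comparisons used the same SAT libraries of 24 months. SAT and VAT were taken from the same few mice per age, and which libraries share a mouse is not stated, so p-values measure only the spread between these libraries. The label gives adipocytes as the cell type, while adipocyte nuclei made up 3.00% to 67.3% of the nuclei kept per library.

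In the Hippo pathway, STK3 and STK4 kinases with the adaptors SAV1 and MOB1 activate LATS1 and LATS2, which phosphorylate YAP and TAZ, the product of Wwtr1, and keep them out of the nucleus. YAP and TAZ that reach the nucleus bind TEAD factors and switch on genes such as Ccn1 and Ccn2, which encode secreted matrix proteins. VGLL proteins have no DNA-binding domain and bind TEAD factors through a short motif, and VGLL4 competes there with YAP. In fat, TAZ is known as a repressor of PPARG, the master factor of adipocyte differentiation, and Vgll3 has been described as an inhibitor of that differentiation.

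TEAD factors recognise GGAATG, and the reference promoters are shown because both genes with the largest differences in adipocytes, Vgll3 and Ccn1, and the coactivator gene Wwtr1 held a match. Each sequence is from RefSeq (GRCm38.p6), runs 5′ to 3′ in the direction of the gene and covers 250 bases before to 50 bases after the start of transcription. Capitals mark GGAATG or its reverse complement CATTCC, and no other motif was searched. The windows are chr16:65814939-65815238 (plus strand) for Vgll3, chr3:145649936-145650235 (minus strand) for Ccn1 and chr3:57575861-57576160 (minus strand) for the first of 2 annotated promoters of Wwtr1.
Vgll3: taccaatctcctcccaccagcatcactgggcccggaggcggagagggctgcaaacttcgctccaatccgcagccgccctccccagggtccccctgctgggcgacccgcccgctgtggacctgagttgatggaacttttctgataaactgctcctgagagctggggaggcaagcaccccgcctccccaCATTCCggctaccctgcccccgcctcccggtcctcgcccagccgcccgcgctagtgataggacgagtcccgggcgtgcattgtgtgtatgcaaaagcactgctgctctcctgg
Ccn1: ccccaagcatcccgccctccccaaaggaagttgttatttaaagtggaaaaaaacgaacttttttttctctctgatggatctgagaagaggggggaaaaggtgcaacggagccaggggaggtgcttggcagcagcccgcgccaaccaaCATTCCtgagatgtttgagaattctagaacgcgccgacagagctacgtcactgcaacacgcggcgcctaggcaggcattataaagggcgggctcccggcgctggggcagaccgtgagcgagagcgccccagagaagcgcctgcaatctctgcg
Wwtr1: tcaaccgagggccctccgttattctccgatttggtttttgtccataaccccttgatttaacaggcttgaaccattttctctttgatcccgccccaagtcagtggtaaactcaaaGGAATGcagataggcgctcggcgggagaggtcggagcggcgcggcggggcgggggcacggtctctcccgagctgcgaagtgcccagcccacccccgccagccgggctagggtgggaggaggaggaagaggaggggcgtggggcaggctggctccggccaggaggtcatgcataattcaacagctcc

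The match began 63 bases before the start in Vgll3, 103 bases before it in Ccn1 and 136 bases before it in Wwtr1. Vgll4 and Yap1 also held 1 match each, Lats2 held 1 in 1 of its 2 promoters, and Lats1 held none. Tead1 and Ccn2 had no entry in the promoter table. Of 32851 reference promoters of this length, 14.7% held at least 1 match and 1.33% held 2 or more. A match is a run of letters and not a measured binding site.

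In GRCm39, the build of the files, Vgll3 (ENSMUSG00000091243) lies at chr16:65611923-65663369 on the plus strand, has 4 exons and overlaps no other annotated gene. Tead1 (ENSMUSG00000055320) spans chr7:112278522-112506014 and Ccn1 (ENSMUSG00000028195) spans chr3:145352720-145355738. Wwtr1 (ENSMUSG00000027803) lies at chr3:57363067-57483331, Yap1 (ENSMUSG00000053110) at chr9:7932000-8004661 and Vgll4 (ENSMUSG00000030315) at chr6:114837589-114946955. Lats1 (ENSMUSG00000040021) lies at chr10:7556736-7592226 and Ccn2 (ENSMUSG00000019997) at chr10:24471333-24474900. Lats2 (ENSMUSG00000021959) at chr14:57926960-57995845 shares 56601 bases of its span, on the same strand, with the protein-coding gene Gm49361, and its counts are uncertain. Yap1, Wwtr1, Tead1, Lats1, Ccn1 and Ccn2 each overlap a gene on the opposite strand. Whether the counting used strand is not given in the sources used here.

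After the filters of the study, 27074 of 50859 barcodes were kept, 2490 to 5776 per library, at a median of 1380 to 1878 unique molecular identifiers (UMIs) per nucleus. Median mitochondrial shares ran from 0.776% to 5.07%. No pair of libraries shared more than 0.482% of the barcodes of the smaller one. Nuclei were clustered and named from marker genes, and the names stand for RNA profiles. They included 7376 adipocyte nuclei and 1482 fibroadipogenic progenitor (FAP) nuclei, and 3823 nuclei stayed unnamed. VAT replicate 2 held only 152 adipocyte nuclei, against 499 to 2986 in the other libraries. All 8 adipocyte markers were detected in the adipocyte nuclei of every library, where they summed to 11396 to 14844 CPM. CPM, the usual scaling of counts to a common library total, here relates the UMIs of a gene to all UMIs of that class in that library. Over all kept nuclei the 9 genes had 67 UMIs (Lats2) to 23082 UMIs (Tead1), and Vgll3 had 4635 UMIs in 2447 nuclei.

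Vgll3 was near the detection limit in young adipocytes and present in every older library. Its level was 4.36 and 2.30 CPM in young SAT (8 and 2 UMIs), 212 and 231 CPM in old SAT (307 and 1288 UMIs), and 260 and 168 CPM in old VAT (2146 and 72 UMIs). All 4 older libraries stood far above both young ones, and the 2 depots overlapped. The means were 3.33 ± 1.46, 221 ± 13.6 and 214 ± 64.8 CPM (SD, n = 2 each), and the fitted difference between the ages of SAT was 6.06 ± 0.41 on the log2 scale (SE). With 10 UMIs in all at 2 months, the size of that ratio rests on few molecules. Leaving out SAT 2 months replicate 1 gave 6.77, a larger difference by over 1.5 times on the linear scale.

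The young libraries were also the lowest in the share of nuclei. With every nucleus thinned to 1000 UMIs, a Vgll3 UMI was found in 0.337% (exact 95% interval 0.0696 to 0.982) and 0.200% (0.00507 to 1.11) of young SAT adipocytes. The share was 16.6% (13.9 to 19.6) and 16.5% (14.97 to 18.1) in SAT at 24 months, and 17.3% (15.9 to 18.7) and 10.5% (6.14 to 16.5) in VAT. These intervals cover counting error only. T or NK nuclei held 17 Vgll3 UMIs over 5 libraries, and whether these UMIs were their own was not tested. Thinned shares there were 0.306% and 0.0430% in young SAT, 0.290% and 2.00% in old SAT and 0.200% in VAT replicate 2. In the young libraries Vgll3 was at 2.97 and 0.635 CPM in T or NK nuclei (6 and 2 UMIs), against 4.36 and 2.30 CPM in adipocytes. The 2.00% of SAT 24 months replicate 2 was 3 of 150 nuclei. Without thinning the adipocyte shares were 0.787% and 0.401% at 2 months, 26.2% and 30.9% in SAT at 24 months, and 33.1% and 27.6% in VAT. FAP markers summed to 333 and 358 CPM in young SAT adipocytes, 214 and 622 CPM in old SAT and 676 and 554 CPM in VAT. Several other marker lists moved with age in adipocytes. T or NK markers summed to 230 and 415 CPM in the young libraries against 15.1 to 52.4 CPM in the 4 older ones, B markers to 270 and 408 against 21.0 to 76.6 CPM, and macrophage markers to 379 and 321 against 113 to 212 CPM. Endothelial markers (99.7 and 135 against 48.3 to 74.8 CPM) and dendritic markers (109 and 205 against 26.8 to 73.1 CPM) were also higher in the young libraries. Epithelial markers went the other way, at 221 and 313 against 463 to 663 CPM, as did smooth muscle or pericyte markers, at 58.3 and 81.7 against 84.2 to 133 CPM. All 8 B markers and at least 9 of 10 macrophage and T or NK markers were detected in both young libraries, and the part of this RNA in the values was not tested. Median depth was 1562 to 2258 UMIs per nucleus in adipocytes and 1218 to 1409 UMIs in T or NK nuclei.

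Ccn1, which encodes the secreted matricellular protein CYR61 and is a standard readout of YAP and TEAD, was likewise low in young adipocytes and higher in both older groups. Its level was 8.72 and 5.75 CPM in young SAT (16 and 5 UMIs), 130 and 306 CPM in old SAT (188 and 1706 UMIs), and 341 and 145 CPM in old VAT (2810 and 62 UMIs). Both older groups lay above the young one, with a more than 2-fold gap between the replicates of each older group. The means were 7.23 ± 2.10, 218 ± 125 and 243 ± 138 CPM (SD, n = 2 each), and the fitted age difference was 4.98 ± 0.57 on the log2 scale (SE). It was 4.32 without SAT 24 months replicate 2, a ratio smaller by over 1.5 times. Thinned shares of adipocytes with a Ccn1 UMI were 0.674% and 0.401% at 2 months, 7.65% and 14.9% in SAT at 24 months, and 21.4% and 9.87% in VAT. T or NK nuclei had 0% to 0.667%.

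Ccn2, which encodes the related matricellular protein CTGF and is named as often as Ccn1 as a YAP target, was not lowest in young adipocytes. Its level was 2.72 and 9.20 CPM at 2 months, 2.07 and 3.41 CPM in old SAT, and 2.54 and 2.34 CPM in VAT. The groups overlapped, and the gene was too low to be fitted in this class.

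The 2 coactivator genes differed less between the ages. Wwtr1 was at 95.9 and 116 CPM in young SAT adipocytes, 199 and 188 CPM in old SAT and 230 and 185 CPM in old VAT. Its older libraries all lay above the young ones, and the fitted age difference was 1.04 ± 0.25 on the log2 scale (SE). Yap1 was at 67.0 and 54.1 CPM in young SAT adipocytes, 99.3 and 97.5 CPM in old SAT and 87.4 and 88.9 CPM in old VAT. Here too the older libraries were the higher ones, with an age difference of 0.84 ± 0.24 (log2, SE).

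Tead1, the TEAD factor with the most UMIs among these genes, was at 769 and 1002 CPM in young SAT adipocytes, 1013 and 765 CPM in old SAT and 1079 and 922 CPM in old VAT. Its groups overlapped, and the age difference was 0.17 ± 0.29 on the log2 scale (SE), or -0.01 when libraries were scaled to their totals. Vgll4 was at 89.9 and 144 CPM in young SAT adipocytes, 219 and 147 CPM in old SAT and 166 and 152 CPM in old VAT. Its age difference was 0.82 ± 0.30 (log2, SE), with the ranges of the 2 ages of SAT close to touching. Lats1 was at 56.1 and 55.2 CPM in young SAT adipocytes, 52.4 and 65.6 CPM in old SAT and 63.6 and 39.8 CPM in old VAT, which overlapped, with an age difference of 0.25 ± 0.28 (log2, SE). Lats2 had 3 UMIs in young SAT adipocytes, 0 in old SAT and 6 in VAT, too few for any comparison.

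**Figure D1:**
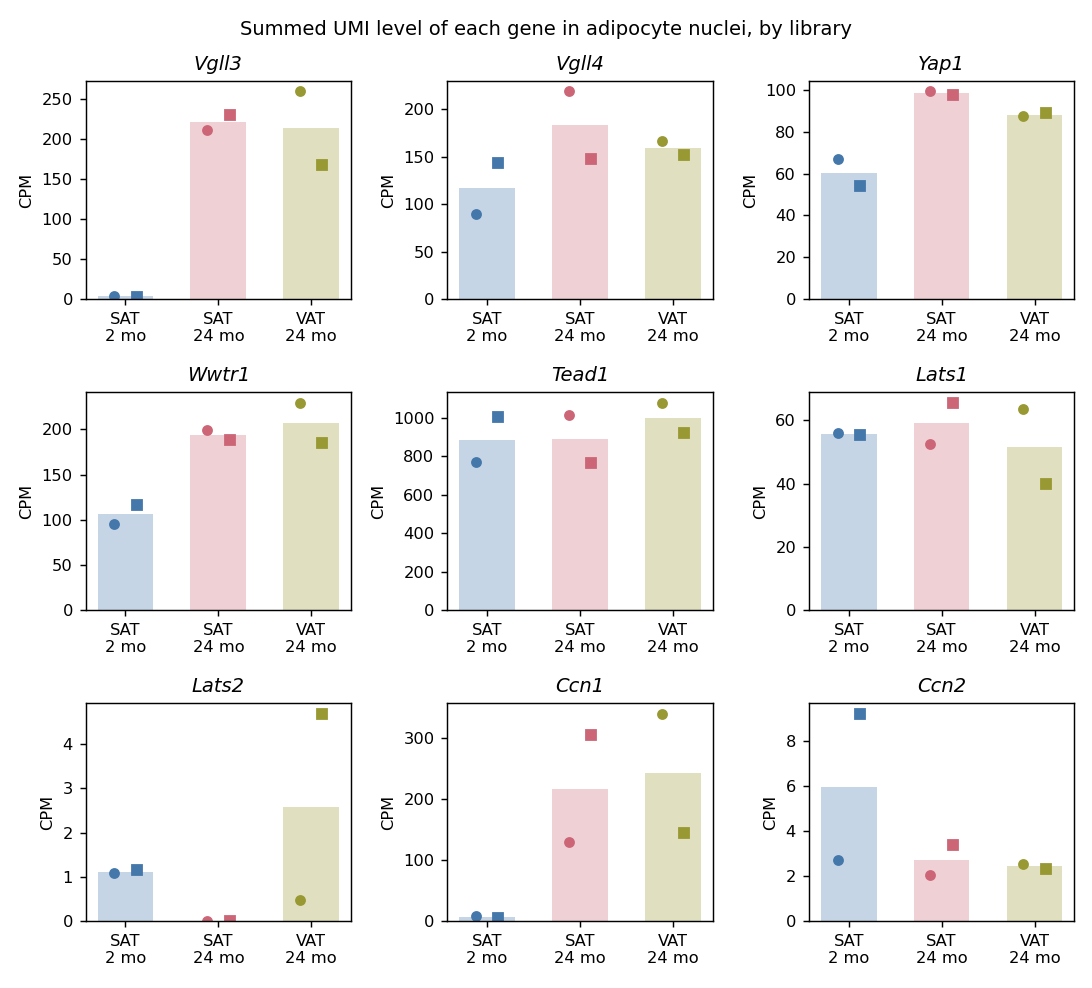
Level of each of the 9 genes in adipocyte nuclei, in CPM on a linear axis from 0, for young SAT, old SAT and old VAT (2, 24 and 24 months). Bars are means of 2 libraries, circles replicate 1 and squares replicate 2. Vgll3 and Ccn1 sit near 0 in young SAT and above 100 CPM in all 4 older libraries, while Tead1 and Lats1 overlap between the groups.

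Of all 12910 genes fitted in adipocytes, 14.2% passed an adjusted p of 0.05 between the ages of SAT (edgeR quasi-likelihood test, Benjamini-Hochberg adjustment), 846 higher and 993 lower at 24 months. Scaling to library totals gave 658 higher and 1345 lower and moved the median log2 fold change of all genes from -0.00067 to -0.17. Among the 9 genes 7 could be fitted, and 4 of these, Vgll3, Ccn1, Wwtr1 and Yap1, lay past the same threshold. Over 13 alternatives Yap1 ran from 0.67 to 1.09 and Wwtr1 from 0.86 to 1.29 (log2), and neither lay past it in all. Because that contrast chose Vgll3, nothing is read from the count of 4.

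Adipocyte nuclei fell into 6 clusters, and 5 of them held at least 20 nuclei of each young library. In each of these 5 the old SAT libraries were above the young ones in Vgll3. The highest levels were in the cluster led by Gm31517, Ptchd4, Adamts5, Eepd1 and Svep1 (cluster 1), at 15.8 and 6.02 CPM at 2 months, 297 and 325 CPM in old SAT and 381 and 239 CPM in VAT. In the cluster led by Slc1a3, Fam13a and Slc7a10 (cluster 0) the values were 1.86 and 0 CPM at 2 months, 165 and 200 CPM in old SAT and 250 and 151 CPM in VAT. In the cluster led by Fam13a, Cyp2e1 and Nrg4 (cluster 4) the young libraries had 1.60 and 0 CPM, old SAT 152 and 117 CPM and VAT 138 and 91.7 CPM. Young values stayed at or below 15.8 CPM throughout. Cluster 26, led by the fatty acid synthesis genes Acaca, Elovl6 and Fasn and drawn mostly from VAT replicate 1, was lower in Vgll3 than the other older clusters of its libraries, at 86.4 CPM in SAT 24 months replicate 2 and 14.5 CPM in VAT replicate 1.

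Ccn1 had a similar spread over the clusters. In cluster 1 it was at 26.4 and 6.02 CPM at 2 months, 157 and 424 CPM in old SAT and 461 and 218 CPM in VAT. It was at 36.0 CPM and 41.4 CPM in cluster 26 of SAT 24 months replicate 2 and VAT replicate 1. Since the clusters were built from these nuclei, their levels are a description.

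**Figure D2:**
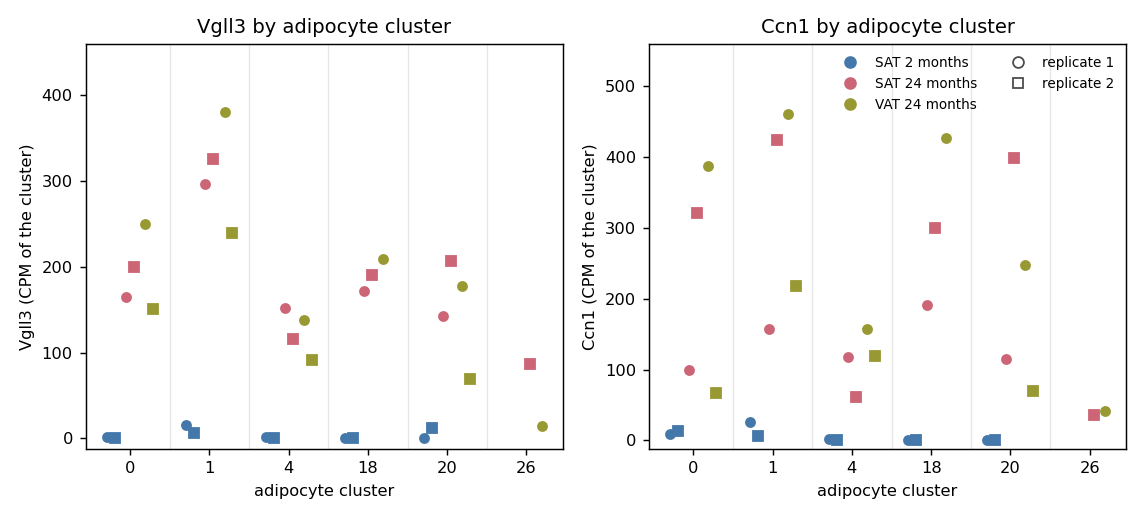
Vgll3 (left) and Ccn1 (right) in each adipocyte cluster, in CPM of that cluster, for libraries with at least 20 nuclei there. Colours are the 3 groups, circles replicate 1 and squares replicate 2. Vgll3 stays at or below 15.8 CPM in every young point, and cluster 26 holds the lowest Vgll3 point of SAT 24 months replicate 2 and of VAT replicate 1.

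Between the depots at 24 months, adipocytes did not differ detectably in the 7 genes that could be fitted, and Ccn2 and Lats2 were not tested. The fitted VAT minus SAT difference was 0.02 ± 0.27 for Vgll3 (log2, SE, adjusted p = 0.997), 0.25 ± 0.41 for Ccn1 (adjusted p = 0.950), 0.15 ± 0.25 for Wwtr1 (adjusted p = 0.951) and -0.13 ± 0.24 for Yap1 (adjusted p = 0.954), by edgeR. Tead1 gave 0.20 ± 0.29 (adjusted p = 0.941), Vgll4 -0.16 ± 0.30 (adjusted p = 0.954) and Lats1 -0.06 ± 0.28 (adjusted p = 0.986). In edgeR 0 of the 7 fitted genes passed the threshold and 0 had an unadjusted p under 0.05, and DESeq2 called 0. Over all genes the share called in this contrast was 0.139%, and with 2 libraries a group a difference of the size of these errors could not be seen. Without VAT replicate 2, which gave 152 adipocyte nuclei, the differences were 0.28 for Vgll3 and 0.69 for Ccn1.

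Averaged over young and old libraries, Vgll3 was highest in adipocytes and in FAPs, the mesenchymal cells from which adipocytes form. Adipocytes led only in the older groups: in young SAT they had a mean of 3.33 CPM, below FAPs (109 CPM) and smooth muscle or pericyte nuclei (46.1 CPM). Over libraries with at least 20 nuclei the mean was 146 ± 115 CPM in adipocytes and 124 ± 55.6 CPM in FAPs (SD, n = 6 each). Mesothelial nuclei followed at 45.7 ± 59.1 CPM (n = 2) and smooth muscle or pericyte nuclei at 44.6 ± 16.6 CPM (n = 6). Macrophages (22.2 CPM), endothelial (22.1 CPM), ovary or oviduct (13.1 CPM), B (12.5 CPM), T or NK (5.57 CPM), dendritic (4.36 CPM) and epithelial nuclei (2.06 CPM) came next, and skeletal muscle nuclei had 0 UMIs in their 1 library. The step from FAPs to mesothelial nuclei was the only one between neighbours that exceeded the SD of both classes. The SD in adipocytes spans young and old libraries.

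**Figure D3:**
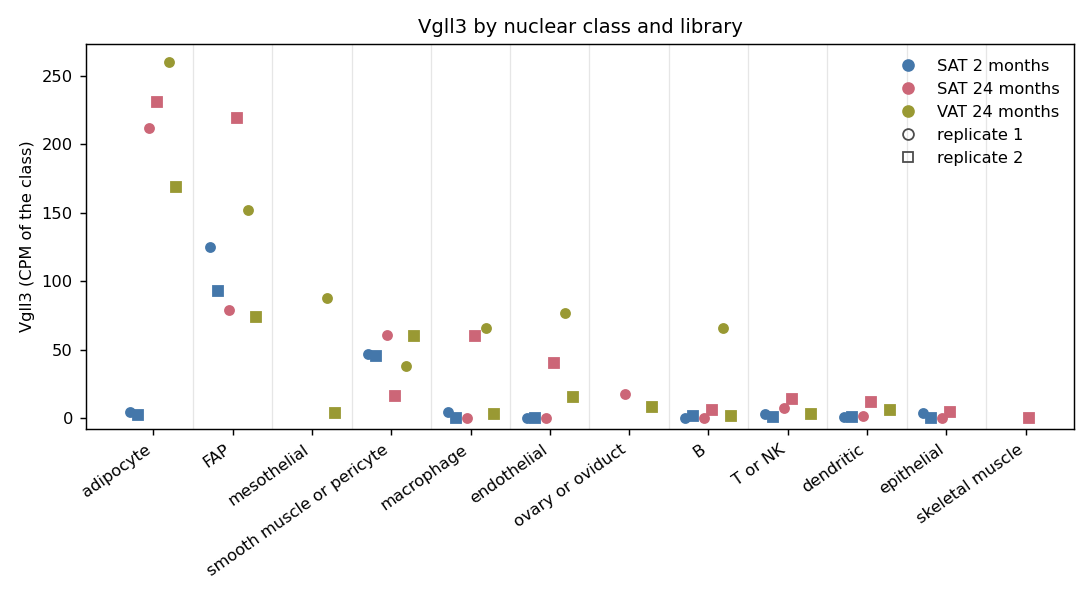
Vgll3 in every nuclear class with at least 20 nuclei in a library, in CPM of the class. Colours are the 3 groups, circles replicate 1 and squares replicate 2. In FAPs the young libraries lie among the older ones, at 125 and 92.6 CPM, unlike in adipocytes.

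In FAPs, Vgll3 was already present at 2 months. It was at 125 and 92.6 CPM in young SAT (48 and 36 UMIs), 78.8 and 219 CPM in old SAT (7 and 86 UMIs) and 152 and 73.7 CPM in old VAT (144 and 20 UMIs). The 3 groups overlapped, with an age difference of 0.63 ± 0.53 (log2, SE, adjusted p = 0.696) and a depot difference of -0.47 ± 0.52 (adjusted p = 0.950), by edgeR. Thinned shares of FAPs with a Vgll3 UMI were 9.71% and 6.60% in young SAT, 6.56% and 16.3% in old SAT and 10.9% and 6.29% in VAT. Whether the age difference itself differs between adipocytes and FAPs was not tested.

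Ccn1 was also present in young FAPs, at 117 and 383 CPM, against 146 and 91.8 CPM in old SAT and 90.9 and 14.7 CPM in old VAT. Its age difference was -1.11 ± 0.74 (log2, SE, adjusted p = 0.616) and its depot difference -0.92 ± 0.77 (adjusted p = 0.933). Wwtr1 had the most distinct values in FAPs, at 57.1 and 56.6 CPM in young SAT, 135 and 140 CPM in old SAT and 116 and 107 CPM in VAT, with an age difference of 1.33 ± 0.40 (unadjusted p = 0.0069, adjusted p = 0.265, edgeR). Vgll4 was at 51.9 and 41.1 CPM in young SAT FAPs, 11.3 and 38.3 CPM in old SAT and 69.8 and 77.4 CPM in VAT, with a depot difference of 1.25 ± 0.55 (unadjusted p = 0.0435, adjusted p = 0.857). Tead1 was at 286 and 232 CPM in young SAT, 169 and 179 CPM in old SAT and 259 and 295 CPM in VAT (-0.52 ± 0.40 by age, adjusted p = 0.668). Lats1 was at 72.7 and 61.7 CPM in young SAT, 11.3 and 43.4 CPM in old SAT and 45.5 and 44.2 CPM in VAT (-0.93 ± 0.56 by age, adjusted p = 0.574). The age groups did not overlap for Tead1 or Lats1, and neither difference passed. Of all genes with at least 10 UMIs in each group, 21.4% were lower without overlap in FAPs. The 11.3 CPM of Vgll4 and of Lats1 in SAT 24 months replicate 1 was 1 UMI each.

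None of the 8 genes fitted in FAPs passed in either contrast by edgeR (0 of 8 each, background 0% of 8471 genes in both). At an unadjusted p under 0.05 there was 1 of the 8 in each contrast, Wwtr1 by age and Vgll4 by depot, and DESeq2 called 0 of the 8. FAP markers summed to 5074 CPM in FAPs of VAT replicate 2 against 11904 to 23984 CPM in the other libraries, and ovary or oviduct markers summed to 752 CPM there against 24.3 to 64.9 CPM. Without that library the depot difference in FAPs was -0.09 for Vgll3, 1.19 for Vgll4 and -0.25 for Ccn1 (log2). None of the 8 passed in that fit, where 29 of 9681 genes were called. Most FAPs, 940 of 1482, were in 1 cluster (9, led by Lama2 and Col1a2) that every library contributed to, and 2 smaller clusters were uneven between the groups. The cluster led by Pi16 and Fbn1 (14.0) held 16 and 39 old SAT nuclei and 247 of VAT replicate 1, and the one led by Pi16 and Col1a2 (14.1) held 55 and 86 young SAT nuclei. Summed adipocyte markers in FAPs were 748 and 388 CPM in young SAT, 461 and 1778 CPM in old SAT and 1165 and 461 CPM in VAT, highest in the 2 libraries where Vgll3 was also highest, and their part in the FAP values was not tested.

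In macrophages and endothelial nuclei the Vgll3 UMIs came mostly from SAT 24 months replicate 2 and VAT replicate 1, the libraries richest in adipocyte nuclei. Macrophages had 4.19 and 0 CPM in young SAT (1 and 0 UMIs), 0 and 60.2 CPM in old SAT (0 and 33 UMIs) and 65.6 and 2.96 CPM in VAT (32 and 1 UMIs). Summed adipocyte markers in macrophages were 754 and 765 CPM in young SAT, 582 and 2867 CPM in old SAT and 3999 and 456 CPM in VAT, so the libraries high in one were high in the other. Their part in the result was not tested. Vgll3 passed the filter on low counts in macrophages through these 2 libraries, so no fitted difference is given. In endothelial nuclei Vgll3 was at 0 and 0 CPM in young SAT, 0 and 39.9 CPM in old SAT and 76.8 and 15.7 CPM in VAT, too low to be fitted. Adipocyte markers there summed to 1309 and 1418 CPM in young SAT, 1186 and 5168 CPM in old SAT and 3371 and 515 CPM in VAT.

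Wwtr1 was well represented in endothelial nuclei, the class with its highest mean (291 ± 94.0 CPM, SD, n = 6), a step above mesothelial nuclei within the SD. It was at 180 and 262 CPM in young SAT, 430.5 and 286 CPM in old SAT and 369 and 217 CPM in VAT. The age difference was 0.88 ± 0.53 (log2, SE, adjusted p = 0.446). Vgll4 in endothelial nuclei was at 36.0 and 46.2 CPM in young SAT, 35.3 and 35.5 CPM in old SAT and 92.2 and 163 CPM in VAT, a depot difference of 1.69 ± 0.58 (unadjusted p = 0.0158, adjusted p = 0.475, edgeR). Both VAT libraries lay above all 4 SAT libraries there, as they did in FAPs. The share of all genes with such a split by depot was not counted, so nothing particular to Vgll4 is read from it. The mix of clusters differed between libraries. Of the 200 in VAT replicate 2, 111 were in a cluster led by Mmrn1 and Ccl21a and 56 in a cluster found in no other library, and ovary or oviduct markers summed to 465 CPM there against 0 to 77.1 CPM elsewhere. Their part in the Vgll4 value was not tested. By edgeR 0 of 6 genes passed in endothelial nuclei in either contrast (background 0.0446% by age and 0% by depot), with 0 and 1 at an unadjusted p under 0.05. In macrophages 0 of 6 passed in either contrast (background 0% in both), with 0 and 0 at an unadjusted p under 0.05, and DESeq2 called 0 in both classes. The 6 include Vgll3, which passed the filter on low counts there through 2 libraries, so nothing is read from its place in this count. Of the 320 endothelial nuclei of SAT 24 months replicate 2, 288 came from 1 cluster.

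Epithelial nuclei, present in number only in SAT, all but lacked Vgll3, at 3.94 and 0 CPM at 2 months and 0 and 4.28 CPM at 24 months, and had a Yap1 mean of 150 ± 13.6 CPM (SD, n = 4), the highest of any class by a step within the SD of smooth muscle or pericyte nuclei (142 ± 59.6 CPM, n = 6). Vgll4 was at 102 and 98.3 CPM at 2 months and 198 and 151 CPM at 24 months (0.76 ± 0.23, log2, SE, adjusted p = 0.0527, edgeR). Wwtr1 was at 80.2 and 92.1 against 157 and 129 CPM (0.70 ± 0.23, adjusted p = 0.0802), and Tead1 at 73.0 and 67.6 against 96.3 and 129 CPM (0.65 ± 0.24, adjusted p = 0.128). Ccn1 was at 13.1 and 36.9 against 36.9 and 69.8 CPM (1.199 ± 0.43, adjusted p = 0.108). Yap1 itself was at 170 and 145 against 140 and 145 CPM (-0.18 ± 0.22, adjusted p = 0.739). Thus 0 of 7 genes passed by edgeR at a background of 7.65%, while 5 of the 7 had an unadjusted p under 0.05 (2256 of 11497 over all genes), and DESeq2 called 0. Young and old epithelial nuclei fell in part into separate clusters, one led by Syn2, Cdcp3 and Nrxn3 with 189 and 101 young and 1 and 5 old nuclei, and one led by Slc7a2, Agtr1a and Prlr with 2 and 0 young and 72 and 123 old nuclei.

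T or NK nuclei, tested by age only, held few UMIs of these genes apart from Vgll4 (116 and 128 CPM at 2 months, 133 and 83.7 CPM at 24 months) and Lats1 (92.6 and 75.6, then 70.8 and 65.1 CPM). In edgeR 0 of 4 fitted genes passed at a background of 12.0%, 0 had an unadjusted p under 0.05, and DESeq2 called 0.

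**Figure D4:**
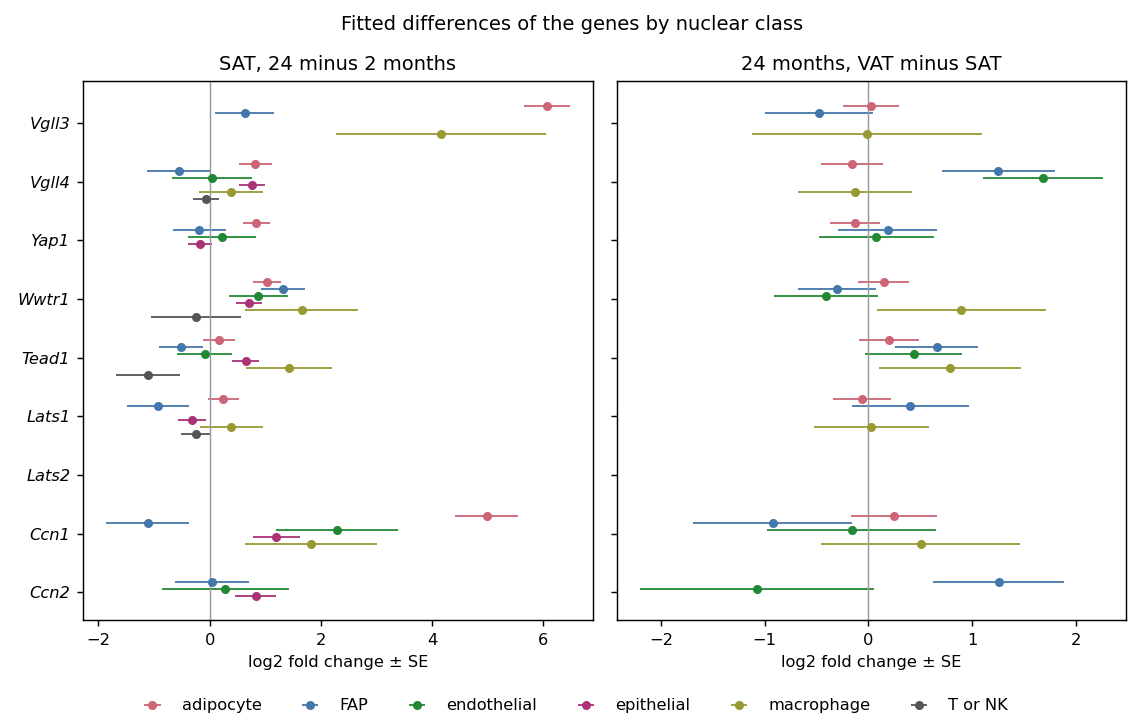
Fitted log2 fold changes with their standard errors (bars) of each gene in each nuclear class, for SAT at 24 minus 2 months (left) and VAT minus SAT at 24 months (right). Genes too low in a class have no point. The Vgll3 points in macrophages rest on UMIs mostly of 2 libraries, and nothing is read from them. In adipocytes Vgll3 and Ccn1 lie at 6.06 and 4.98 by age and at 0.02 and 0.25 by depot.

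The other genes differed in the class where they were highest. By mean, Ccn2 was highest in nuclei named smooth muscle or pericyte (481 ± 393 CPM, SD, n = 6). The step to endothelial nuclei (117 ± 95.7 CPM) lay within the SD. Ccn2 in the named class was at 1057 and 785.5 CPM at 2 months (272 and 276 UMIs), 383 and 505 CPM in old SAT (44 and 191 UMIs) and 154 and 0 CPM in VAT (8 and 0 UMIs). Young and old SAT nuclei of this class were unevenly spread over its 5 clusters, among them 17.0, led by Myh11, Kcnq5, Cxcl14 and Ccn2, with 79 and 107 young and 4 and 15 old SAT nuclei, and 17.1 with 15 and 12 young and 51 and 79 old. The cluster led by Hba-a1 and Rgs5 (8.4) held 7 and 5 young and 4 and 76 old nuclei, and one led by Ccl21a and Ccl19 (27.1) held 23 and 56 young and 9 and 8 old. Clusters 17.0 and 17.1 held 212 and 157 of the 604 nuclei of the class, with 0 and 7 VAT nuclei in 17.0 and 0 in 17.1. Each was more than 2-fold above the other nuclei in only 4 of the 9 markers behind the class name. The part of each cluster in the Ccn2 values was not tested, and no test was made in this class. Tead1 was highest in adipocytes, at 925 ± 132 CPM (SD, n = 6), followed by skeletal muscle nuclei at 561 CPM in 1 library and smooth muscle or pericyte nuclei at 386 ± 127 CPM. Vgll4 ran from 48.3 CPM in FAPs to 167 CPM in B nuclei, and Lats1 from 31.6 CPM in ovary or oviduct nuclei to 87.0 CPM in B nuclei, with no step between neighbours larger than the SDs of both. Mesothelial nuclei, of which SAT had 2 in all, had Vgll3 at 87.5 and 3.89 CPM, Ccn1 at 226.5 and 29.97 CPM and Wwtr1 at 168 and 259 CPM. No comparison between groups could be made there.

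The other 41 genes of the pathway were taken as 4 lists: further TEAD and VGLL genes, the kinase core, upstream scaffolds, and a signature of YAP and TAZ targets drawn up in human cancer cell lines. In adipocytes 32 of them were tested by age, and 7 rose and 2 fell in SAT at 24 months by edgeR, with 16 at an unadjusted p under 0.05 (3915 of 12910 over all genes). This is 9 of 32 against 14.2% of all genes, and their median log2 fold change was 0.22 against -0.00067. DESeq2 called 8 (1347 of 12910 over all genes). The count was 3 without SAT 2 months replicate 1, 1 without SAT 2 months replicate 2, and 6 and 5 without SAT 24 months replicate 1 and replicate 2. Over all genes the calls moved from 1839 to 668, 472, 1908 and 1289 in the same fits, and the 9 genes kept their sign in all 13 alternatives.

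Of the target signature 14 of 19 genes were tested, 5 rose and 1 fell, with a median of 0.64. Crim1, which encodes a membrane protein that binds bone morphogenetic proteins, went from 55.0 and 41.4 CPM to 280 and 173 CPM (2.36 ± 0.33, log2, SE, adjusted p = 0.0010, edgeR) and passed in all 13 alternatives. Rbms3, an RNA-binding protein gene, went from 227 and 240 to 771 and 573 CPM (1.69 ± 0.31, adjusted p = 0.0046). Amotl2, an angiomotin family scaffold that itself restrains YAP, went from 293 and 221 to 493 and 649.5 CPM (1.30 ± 0.27, adjusted p = 0.0091). Asap1, a GTPase-activating protein gene (1.40 ± 0.40, adjusted p = 0.0382), and Gadd45a, a stress and DNA damage gene (1.26 ± 0.38, adjusted p = 0.0451), rose as well, but Gadd45a did not pass with DESeq2 (adjusted p = 0.0777), with scaling to library totals (adjusted p = 0.0767) or with 2 groups only (adjusted p = 0.0586), nor without SAT 2 months replicate 2 (0.91, adjusted p = 0.285) or SAT 24 months replicate 2 (adjusted p = 0.122). Its difference ran from 0.91 to 2.08 over the alternatives. Asap1, which ran from 0.86 to 1.91, did not pass with scaling to library totals (adjusted p = 0.0517). Nt5e, which encodes the ectonucleotidase CD73, fell from 28.9 and 33.4 to 9.65 and 10.4 CPM (-1.46 ± 0.39, adjusted p = 0.0299, or 0.0983 with DESeq2 and 0.1201 with no filter on low counts), and passed in 7 of 13 alternatives. Of the same 13, Amotl2 passed in 12, Rbms3 in 11, Asap1 in 9 and Gadd45a in 8.

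Of the kinase core all 9 genes were tested, with 1 higher and 1 lower and a median of -0.08. Taok1, a kinase upstream of STK3 and STK4, rose from 154 and 138 to 243 and 254 CPM (0.92 ± 0.24, adjusted p = 0.0272, edgeR). Stk38, a kinase related to LATS1, fell from 430 and 489 to 203 and 212 CPM (-0.99 ± 0.24, adjusted p = 0.0183, or 0.177 with no filter on low counts). Of the scaffolds 6 of 8 were tested, with a median of 0.36, and Wwc2, a relative of the scaffold KIBRA, rose from 133 and 120 to 284 and 193 CPM (1.07 ± 0.31, adjusted p = 0.0376, or 0.0554 with scaling to library totals). Taok1 passed in 10 of 13 alternatives, Wwc2 in 9 and Stk38 in 8. Of the further TEAD and VGLL genes 3 of 5 were tested and none passed (edgeR 0, unadjusted p under 0.05 in 1 of 3, DESeq2 0).

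**Figure D5:**
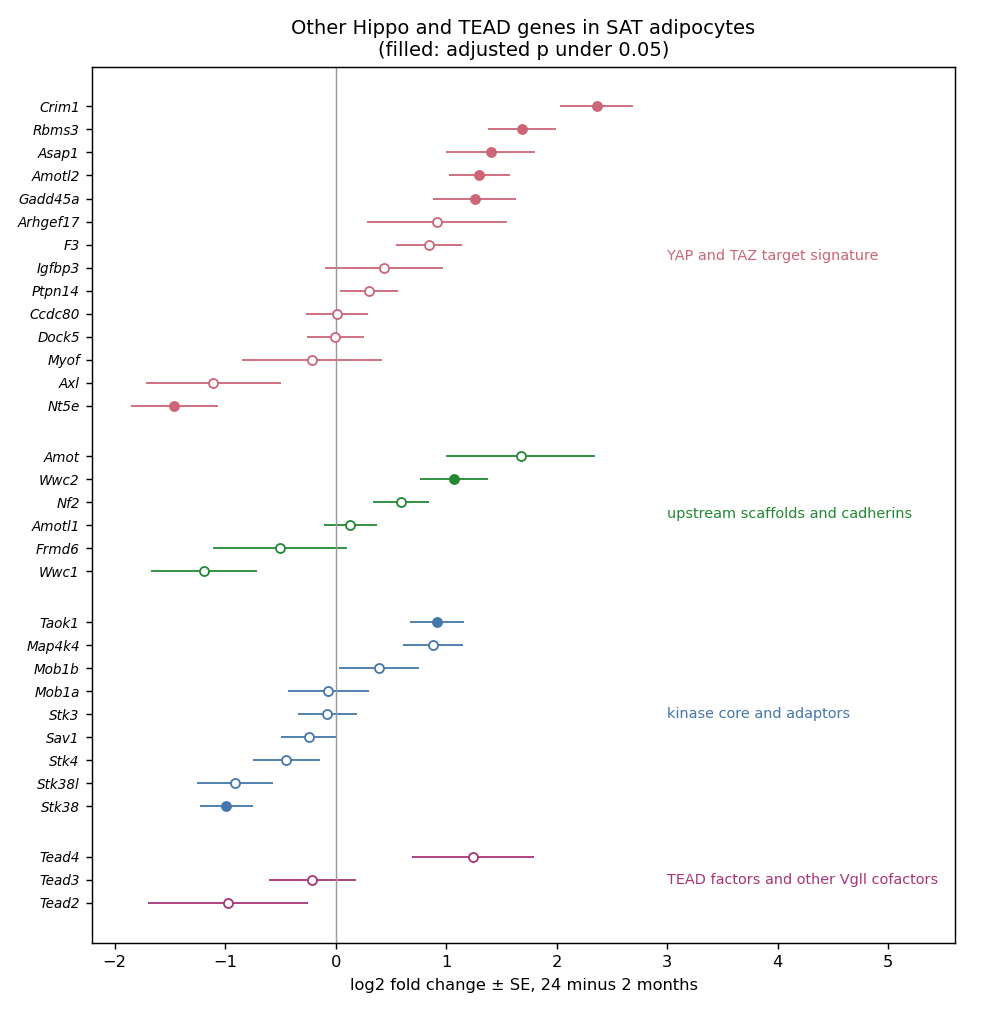
Fitted log2 fold changes with standard errors in SAT adipocytes, 24 minus 2 months, of the 32 other pathway genes that could be tested, by list. Filled points passed an adjusted p of 0.05. Crim1 and Rbms3 lead the target signature at 2.36 and 1.69, and Nt5e lies at -1.46.

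By depot, 0 of the 32 other genes passed in adipocytes by edgeR, with 4 at an unadjusted p under 0.05 (888 of 12910 over all genes) and 0 by DESeq2, at a background of 0.139%. Without SAT 24 months replicate 1 there was 1, in a fit that called 164 of 15117 genes. It was Tead4 (-2.35, adjusted p = 0.0386), whose adipocyte level was 22.4 CPM in SAT 24 months replicate 2 and 9.0 CPM in replicate 1.

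In the other classes the lists gave few calls. In epithelial nuclei 5 of 33 other genes passed by age (background 7.65%). Frmd6 (0.78 ± 0.23, adjusted p = 0.0475, edgeR), an upstream scaffold, Amotl2 (0.93 ± 0.25, adjusted p = 0.0285) and Tgfb2, a growth factor of the TGF-beta family (1.56 ± 0.36, adjusted p = 0.0111), rose. F3, the gene of tissue factor, fell from 1349 and 1526 to 316 and 238 CPM (-2.41 ± 0.24, adjusted p = 6.10e-06), and Gadd45a fell from 118 and 73.7 to 41.0 and 42.0 CPM (-1.26 ± 0.28, adjusted p = 0.0091). DESeq2 called only F3 and Gadd45a of these, and the count was 1 without SAT 2 months replicate 1 (676 over all genes, against 879). It was 10 without SAT 24 months replicate 2 (1160 over all genes), where Vgll4, Wwtr1 and Ccn2 were among the genes called.

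In T or NK nuclei 5 of 26 passed (background 12.0%). Dock5, a guanine nucleotide exchange factor gene, rose from 40.1 and 44.5 to 243 and 274 CPM (2.61 ± 0.21, adjusted p = 2.98e-09), and Rbms3 (1.198 ± 0.27, adjusted p = 0.0031) and Nf2, the gene of the scaffold merlin (0.88 ± 0.24, adjusted p = 0.0167, edgeR), rose too. Stk38 fell from 696 and 686 to 376 and 293 CPM (-0.99 ± 0.19, adjusted p = 0.0008), and Asap1 fell (-0.77 ± 0.21, adjusted p = 0.0142). DESeq2 called 3 of the 5, Stk38, Dock5 and Rbms3, and the count was 1 without either SAT 2 months library, where calls over all genes went from 1378 to 356 (without replicate 1) and 230 (without replicate 2). The mix of clusters in the class also differed by age. The cluster led by Il23r and Il18r1 (10.0) held 47 of 1309 and 71 of 2325 young SAT nuclei and 111 of 345 and 61 of 150 old SAT nuclei, and the part of this mix in the values was not tested.

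In FAPs 0 of 31 other genes passed in either contrast by edgeR (background 0% in both), with 6 and 2 at an unadjusted p under 0.05 by age and depot (938 and 490 of 8471 over all genes), and DESeq2 called 1 by age (21 over all genes), F3, and 0 by depot. F3 was at 20.8 and 66.9 CPM in young SAT FAPs, 506 and 240 CPM in old SAT and 351 and 81.1 CPM in VAT (3.07 ± 0.78 by age, adjusted p = 0.230 by edgeR and 0.0258 by DESeq2). Without VAT replicate 1, Asap1 passed by depot (-2.19, adjusted p = 0.0253), in a fit that called 279 of 9999 genes. In endothelial nuclei 0 of 21 passed (2 and 1 at an unadjusted p under 0.05, against 679 and 355 of 4489 over all genes) and in macrophages 0 of 25 (3 and 1, against 801 and 294 of 7842), with 0 by DESeq2 in both. Amotl2 passed by age in endothelial nuclei without SAT 24 months replicate 1 (2.87, adjusted p = 0.0263), in a fit that called 279 of 5975 genes against 2 of 4489 with all libraries.

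With 2 libraries a group, both old SAT libraries lie above or below both young ones in many genes, which sets the scale for the members whose groups do not overlap by age. Among genes with at least 10 UMIs in each group, 19.4% were higher and 40.3% lower without overlap in adipocytes, 19.6% and 21.4% in FAPs, 11.4% and 34.8% in endothelial nuclei, 25.4% and 21.3% in epithelial nuclei, 17.8% and 23.1% in macrophages and 27.8% and 26.5% in T or NK nuclei. Vgll4 was higher without overlap in adipocytes and lower in FAPs, as were 2.60% of all genes, and it was higher in epithelial nuclei and lower in FAPs, as were 3.51%. Tead1 was higher in epithelial nuclei and in macrophages, and lower in FAPs and in endothelial nuclei. The shares of all genes were 3.51% (epithelial and FAP), 6.32% (epithelial and endothelial), 1.74% (macrophage and FAP) and 3.88% (macrophage and endothelial). Each pair of classes was picked from many for the opposite signs, and nothing particular to these genes is read from it.

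The genes whose levels were most like those of Vgll3, by Pearson correlation of log2(CPM + 5) over 55 sums of class and library, were Dlc1 (r = 0.83), Col5a1 (r = 0.83), Col5a3 (r = 0.82), Adamts5 (r = 0.80) and Svep1 (r = 0.79), among 12305 genes compared. The sums share libraries and depth, and the values are a description. Adamts5, a gene of an aggrecan-cleaving protease, was at 73.0 and 18.4 CPM in young SAT adipocytes, 1010 and 1351 CPM in old SAT and 1004 and 922 CPM in VAT. Dlc1 was at 816 and 621 CPM in young SAT, 1965 and 2101 CPM in old SAT and 1978 and 1878 CPM in VAT. Ccn1 ranked 53 (r = 0.67) and Tead1 235 (r = 0.57), while Yap1 (r = 0.43) and Wwtr1 (r = 0.42) were less alike. Ccn2 (r = 0.17), Vgll4 (r = 0.0006) and Lats1 (r = -0.03) showed little or no likeness, and Lats2 was too low to be compared.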

How the data were processed

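Single-nucleus libraries were made with the Singleron GEXSCOPE kit and sequenced on an Illumina HiSeq X10, and the authors made the deposited UMI counts per gene and barcode with Celescope on GRCm39. The Celescope version and annotation release are not given in the sources used here. The deposited counts hold barcodes of at least 500 UMIs. The filters of the study were applied: more than 500 genes and 1000 UMIs per nucleus and a mitochondrial share below 15%. They were clustered on 1000 variable genes and 30 principal components aligned between libraries (scanpy 1.11.5, leidenalg 0.10.2, resolution 2.0), and clusters were named from fixed markers, needing at least 3 markers. The naming thresholds and subclustering were set after the clusters had been seen, and no doublets were removed because Scrublet marked only 0.0519% to 0.562% of nuclei per library.

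UMIs were summed per library and class (at least 20 nuclei) and tested with edgeR 4.0.16 (quasi-likelihood, TMM, filterByExpr, 3 groups in one fit, two-sided, Benjamini-Hochberg over all genes of a class and contrast, threshold 0.05) in R 4.3.3. The standard error is the log2 fold change divided by the square root of F. DESeq2 1.42.0 was an alternative. The scripts were tested on simulated data. Contrasts needed both libraries of both groups. This left adipocytes, FAPs, endothelial nuclei and macrophages for both contrasts and epithelial and T or NK nuclei for age, while mesothelial nuclei could not be tested. The 9 genes and the 4 lists were chosen with earlier results of these data known, and each of the 9 is named whatever its result, with every called gene of the lists and the 5 genes most like Vgll3. Gene positions are from GENCODE M39. Correlations between the deviations of same-numbered libraries ran from -0.420 to 0.095, so replicate numbers were taken not to pair them.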

Additional observations from a re-analysis of the deposited data

Results flagged for a closer look

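Vgll4 and Tead1 had age differences of opposite sign in different classes of SAT, in the sense that both libraries of 24 months lay above both of 2 months in one class and below them in another. In each case the difference between the classes was not tested, and of all genes between 1.74% and 6.32% met the same rule in these pairs of classes. Vgll4 had a log2 ratio of mean CPM of 0.65 in adipocytes and 0.80 in epithelial nuclei against -0.91 in FAPs, a gap of 1.56 for adipocytes and 1.71 for epithelial nuclei. The FAP value rests on 11.3 CPM (1 UMI) and 38.3 CPM at 24 months, and SAT 24 months replicate 1 held only 61 FAP nuclei. Tead1 had a log2 ratio of 0.68 in epithelial nuclei and 1.30 in macrophages, against -0.57 in FAPs and -0.32 in endothelial nuclei. The gaps were 1.25 (epithelial and FAP), 0.997 (epithelial and endothelial), 1.87 (macrophage and FAP) and 1.61 (macrophage and endothelial). In macrophages, summed adipocyte markers were 754 and 765 CPM at 2 months and 582 and 2867 CPM at 24 months, and Tead1 is highest in adipocytes, whose part in the macrophage value was not tested.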

How the results depend on the processing

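Vgll3 stayed higher at 24 months in SAT adipocytes under each alternative run, at 5.82 to 6.77 on the log2 scale when 1 library was left out and 5.89 to 6.30 otherwise. The unthinned shares of adipocytes with a Vgll3 UMI were 26.2%, 30.9%, 33.1% and 27.6% in the older libraries, against 16.6%, 16.5%, 17.3% and 10.5% thinned. The number of pathway genes called, the 9 included except in adipocytes by age, depended more on the libraries. In adipocytes it was 9 by age and 1 to 6 with 1 library left out, and 0 by depot and 0 to 1. In FAPs it was 0 by age and 1 with DESeq2, with no filter on low counts or with 2 groups only, and 0 by depot and 0 to 1 with 1 library left out. In endothelial nuclei it was 0 by age, 1 with no filter and 0 to 1 with 1 library left out. In macrophages it was 0 by age, 2 with no filter (Vgll3 among them, mostly from 2 libraries) and 1 with 2 groups only. In epithelial nuclei it was 5, against 2 with DESeq2, 10 with the replicate number as a block and 1 to 10 with 1 library left out, and in T or NK nuclei 5, against 3 with DESeq2 and 1 to 7. Calls over all genes moved too. They were 1839 in adipocytes by age and 472 to 1908 with 1 library left out, 879 in epithelial nuclei with 506 (DESeq2), 1235 (block) and 616 to 1160, and 1378 in T or NK nuclei with 603 (DESeq2) and 230 to 1787. In FAPs by age they were 0, against 21 (DESeq2), 190 (no filter) and 60 (2 groups only), in endothelial nuclei 2, against 224 (no filter), and in macrophages 0, against 183 (no filter) and 42 (2 groups only). The cause of these changes was not tested. No result reversed past the threshold.

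The replicate numbers pair nothing in the labels, and correlations of same-numbered libraries ran from -0.420 to 0.095. The replicate block gave 11 calls in adipocytes by age (2055 over all genes) and 10 in epithelial nuclei and left the other counts as they were, and with the VAT numbers crossed the depot counts were 0 in all 4 classes. In epithelial nuclei Vgll4 passed in 5 alternatives, Ccn1 in 5, Wwtr1 in 3, Tead1 in 2 and Ccn2 in 2. Leaving out the doublets called by Scrublet was not run because it marked almost none, and leaving out the 6% highest scores instead was chosen after seeing the data. Over 1500 UMIs, FAPs (both contrasts) and endothelial nuclei (age) could not be fitted. At 10 Vgll3 UMIs in young adipocytes, depth limits the size of the ratio.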
